A study of Mus musculus with 39 samples.

Results

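Aminoacyl-tRNA synthetases are the enzymes that join each amino acid to its transfer RNA. The set described here was chosen by gene symbol and holds 36 of the 24689 genes in the tables: 20 synthetases of the cytosol (Eprs carries 2 activities, and Farsa and Farsb encode the subunits of 1 enzyme) and 16 of mitochondria. The split follows the symbols, the mitochondrial members being those that end in 2. An enzyme that works in both places under 1 symbol would count as cytosolic. All 36 were listed in the 3 dendritic cell (DC) tables, and 33 in the T cell table, where Mars2, Nars2 and Wars2 had no row. Every cytosolic member passed the filter on low values in each table. Of the mitochondrial members 13 passed in the time course, 11 in the costimulation experiment, 12 in the 20 h experiment and 9 in the T cells; Mars2, Nars2 and Pars2 passed in none.

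The study asked how lymph node DCs respond when they meet T cells that recognise their antigen. C57BL/6 mice aged 8 to 12 weeks received nanoparticles under the skin of the hock, and DCs or CD4+ OT-II T cells were sorted from popliteal and inguinal nodes for RNA sequencing. OT-II and OT-I are transgenic T cells specific for ovalbumin (OVA), and bovine serum albumin (BSA) is a protein they do not recognise. All nanoparticles of the time course and of the 20 h experiments carried CpG DNA, which activates DCs through TLR9. The time course held 2 libraries each of non-immunized DCs and of DCs taken 12 h and 24 h after CpG-only or OVA+CpG particles. The costimulation experiment, all at 12 h, held 2 libraries each of wild-type DCs after OVA without grafted OT cells, wild-type DCs after OVA with OT cells, wild-type DCs after BSA with OT cells, and Cd80/86 -/- DCs after OVA with OT cells. The 20 h experiment held 5 DC libraries each of non-immunized, BSA+CpG and OVA+CpG mice. The 6 T cell libraries, 3 after BSA+CpG and 3 after OVA+CpG at 20 h, came from OT-II T cells. The series design speaks of mice engrafted with OT-I and OT-II cells, but only the costimulation labels say which DC samples had them. No label gives the number of animals behind a library or says whether 2 libraries of a group came from different animals. The p-values below therefore measure only the spread between these libraries, which may be technical. At 20 h, sex-linked transcripts, given below, differed between libraries of the non-immunized group and between those of the OVA+CpG group. The libraries of each of these groups therefore did not all come from the same animal.

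Charging of transfer RNA supplies the amino acids for all protein synthesis, and cells use uncharged transfer RNA as a sign of amino acid shortage, read by the kinase Gcn2 and the transcription factor Atf4, whose targets include many cytosolic synthetases. T cells that recognise antigen enlarge and raise their translation machinery before they divide. Wars, the tryptophanyl-tRNA synthetase, is unusual among the set because interferon-γ is known to induce it, together with the enzymes that break tryptophan down.

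DC libraries held between 367209 and 2052904 counted reads and T cell libraries between 155088 and 1316341. Levels in DCs are CPM (reads of a gene scaled to library size) and levels in T cells are the normalized counts the authors deposited, so the 2 kinds of cell are not compared in level. A gene was called when its p-value, adjusted over all genes tested in that comparison by the Benjamini-Hochberg method, was below 0.05. DC fold changes and p-values come from edgeR's quasi-likelihood test, T cell ones from limma on log2(normalized count + 1), a scale that understates the change of low genes. The ± after a log2 fold change is its standard error. Counting strand is not given in the sources used here. Exons of Hars and Hars2, and of Mars and Ddit3, overlap on opposite strands in the GENCODE annotation, as do those of Farsb and Sgpp2, Yars and C77080, Iars2 and Rab3gap2 or 2010103J01Rik, Vars2 and Gm20483, Ears2 and Ubfd1, and Fars2 and Lyrm4. Exons of Aars and Exosc6 overlap on the same strand. For all of these, reads from the shared stretches cannot be told apart.

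In OT-II T cells taken 20 h after immunization, synthetases of the cytosol were higher after OVA than after BSA. Of the 20 cytosolic genes 10 rose and none fell, where 10.8% of the 6452 genes tested rose and 5.04% fell. Their median log2 fold change was 0.97, against 0.04 over all genes tested, and 19 of the 20 values were above 0. Among the called genes the 8 largest rises were those of Hars, Rars, Gars, Wars, Iars, Farsa, Kars and Nars, and Eprs and Tars, named after their values were seen, made up the 10. None of the 9 mitochondrial genes tested was called, with 2 at an unadjusted p under 0.05 and a median of 0.29.

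Hars, which charges histidine, stood at 26.7, 15.9 and 26.5 normalized counts in the BSA libraries and at 79.8, 47.7 and 59.3 in the OVA libraries. Each OVA value lay above every BSA value. The log2 fold change was 1.40 ± 0.29 (adjusted p = 0.0106). Rars, the arginine enzyme, was measured at 37.1, 23.8 and 29.6 after BSA and at 82.9, 52.4 and 67.6 after OVA, again without overlap (1.14 ± 0.27, adjusted p = 0.0163). Gars, which charges glycine, gave 40.0, 53.0 and 32.6 against 103.9, 71.9 and 95.7 (1.10 ± 0.26, adjusted p = 0.0152). The lowest OVA value of Gars was above the highest BSA value. Wars gave 34.1, 13.2 and 23.4 after BSA and 55.6, 51.1 and 37.7 after OVA, also apart, and its call was the least certain of the 10 (1.07 ± 0.34, adjusted p = 0.0469).

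The remaining risers had log2 fold changes close to 1, and their BSA and OVA libraries did not overlap. Iars, the isoleucine enzyme, rose by 1.04 ± 0.29 (adjusted p = 0.0318). Farsa, the catalytic subunit of the phenylalanine enzyme, rose by 1.04 ± 0.31 (adjusted p = 0.0402). Kars, the lysine enzyme, rose by 0.97 ± 0.25 (adjusted p = 0.0234) and Nars, the asparagine enzyme, by 0.96 ± 0.25 (adjusted p = 0.0225). For Eprs, which charges both glutamate and proline, the rise was 0.87 ± 0.24 (adjusted p = 0.0311), and for Tars, the threonine enzyme, 0.86 ± 0.23 (adjusted p = 0.0270). In all, 14 cytosolic genes had 3 OVA values above the 3 BSA values, and no cytosolic gene had the reverse. The share of all genes tested that were apart in this way was not counted, so the 14 have no baseline here.

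**Figure D1:**
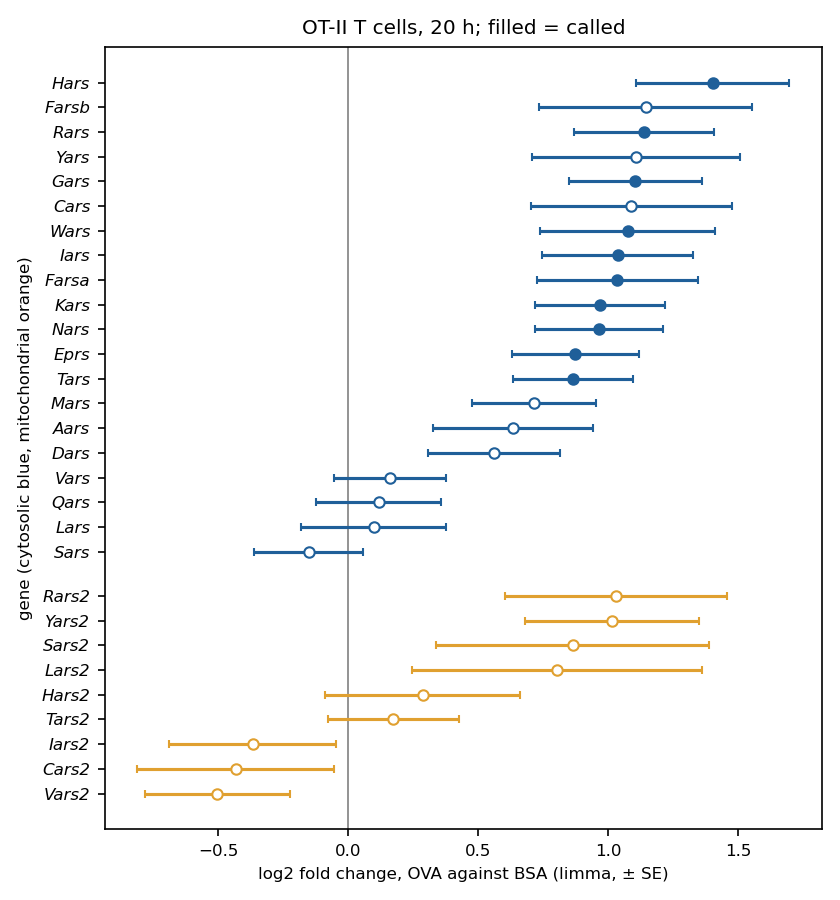
Log2 fold change of each synthetase gene tested in OT-II T cells, OVA+CpG against BSA+CpG at 20 h (x axis; limma, bars are the standard error, 3 libraries a group), with cytosolic genes in blue, mitochondrial genes in orange and called genes filled. The 10 called genes are all on the cytosolic list and lie between 0.86 and 1.40, and Sars, Lars, Qars and Vars sit near 0.

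Of the 10 cytosolic genes not called, some had large values. Farsb, the partner subunit of Farsa, had a log2 fold change of 1.14 ± 0.41, Yars 1.11 ± 0.40 and Cars 1.09 ± 0.39, as large as those called but with wider errors (adjusted p = 0.0771, 0.0787 and 0.0732). Mars, Aars and Dars lay between 0.56 and 0.71 and were not called. Sars, Vars, Qars and Lars, which charge serine, valine, glutamine and leucine, were near 0; these 4 are named because of their values. Sars gave 102, 154 and 125 normalized counts after BSA and 113, 116 and 109 after OVA. The OVA values of Sars fell inside the BSA range (log2 fold change -0.15 ± 0.21). For Vars the log2 fold change was 0.16 ± 0.22, for Qars 0.12 ± 0.24 and for Lars 0.10 ± 0.28. Textbook knowledge places Dars, Eprs, Iars, Kars, Lars, Mars, Qars and Rars in a large complex in the cytosol. Within that complex 4 of 8 genes rose, and outside it 6 of 12, a grouping made after the values were seen.

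**Figure D2:**
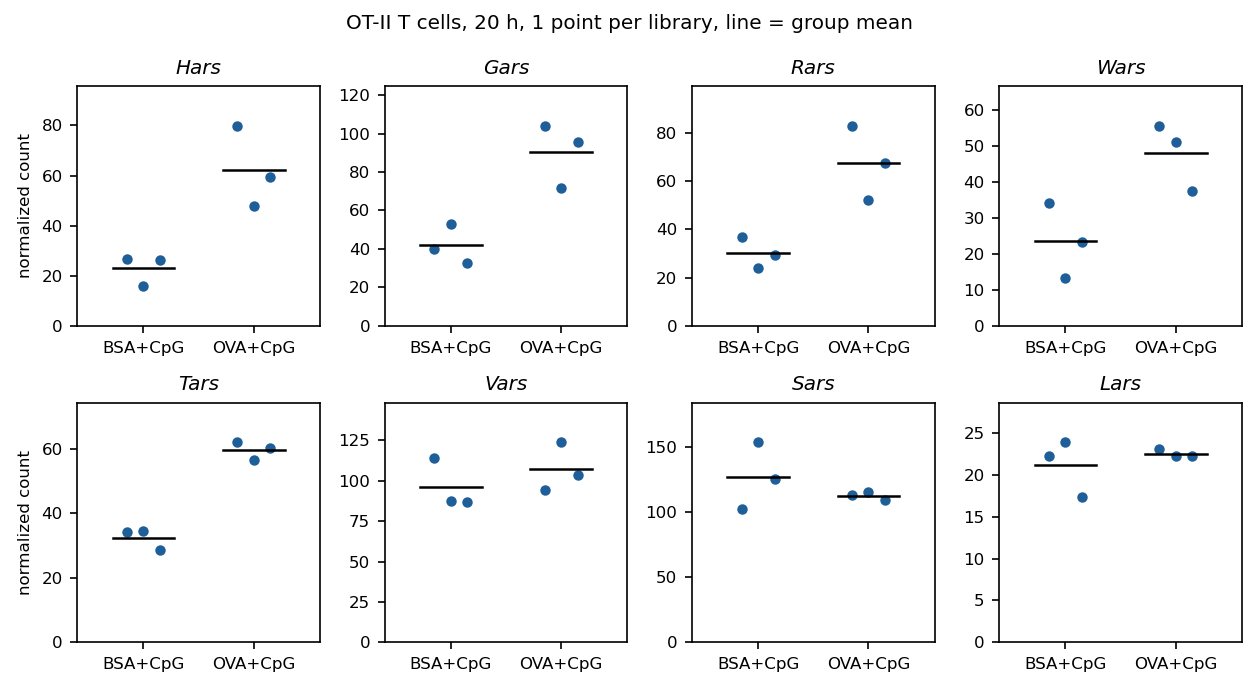
Normalized count (y axis, from 0) of 8 cytosolic synthetase genes in each OT-II T cell library at 20 h, 1 point per library and a line at the group mean; Tars, Vars, Sars and Lars were added after their values were seen. For Hars, Gars, Rars, Wars and Tars the 3 OVA+CpG libraries lie above the 3 BSA+CpG libraries, and for Vars, Sars and Lars they overlap.

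Mitochondrial synthetases ran from -0.50 to 1.03 on the log2 scale. Yars2 had the smallest p, with 20.8, 13.2 and 12.2 normalized counts after BSA and 46.2, 26.2 and 25.3 after OVA (1.01 ± 0.33, adjusted p = 0.0581). Rars2 came next (1.03 ± 0.43, adjusted p = 0.116). Both were apart between the groups without passing the test. Vars2 was apart in the other direction, at 28.2, 23.8 and 24.5 after BSA and 18.9, 18.8 and 15.4 after OVA (-0.50 ± 0.28, adjusted p = 0.226).

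Other genes of translation were counted in the same comparison, where 10.8% of all genes rose, over lists drawn up with earlier results of these data known. Of the 3 scaffold genes of the multi-synthetase complex 2 rose, Eef1e1 by 1.73 ± 0.31 (adjusted p = 0.00575) and Aimp2 by 1.18 ± 0.27 (adjusted p = 0.0142). Initiation factors rose in 17 of 31 cases and fell in none, among them the RNA helicase Eif4a1 (1.46 ± 0.26) and the scaffold Eif4g1 (1.07 ± 0.20). Elongation and release factors rose in 4 of 9 cases, led by Eif5a (1.82 ± 0.20) and the release factor Etf1 (1.58 ± 0.22). Of 15 genes that modify or otherwise serve transfer RNA 2 rose, a share near that of all genes: the methyltransferase Nsun2 (1.56 ± 0.24) and Yrdc (1.47 ± 0.31). Genes of biosynthetic growth rose in 15 of 15 cases, the largest being the spermidine synthase Srm (2.50 ± 0.26) and the transcription factor Myc (2.22 ± 0.28).

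Amino acid response genes, the Atf4 programme, changed in 5 of 13 cases, where 15.9% of all genes tested were called either way. Those that rose were Atf4 itself (0.77 ± 0.21) and the serine and one-carbon enzymes Shmt2 (1.39 ± 0.27), Mthfd2 (1.21 ± 0.26) and Psat1 (1.57 ± 0.43), and Ddit4, an inhibitor of mTORC1, fell by 1.46 ± 0.29. Of 7 amino acid transporters 1 was called, a share near that of all genes: the arginine and lysine carrier Slc7a1 (1.63 ± 0.31). Of 26 interferon-γ induced genes, the group to which Wars is known to belong, 1 was called, the proteasome activator subunit Psme2 (1.08 ± 0.33, adjusted p = 0.0429), and the median of that list was -0.44.

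Promoters of synthetase genes are shown because the risers moved together. RefSeq promoter sequences (build GRCm38.p6; the 250 bases before the annotated start) matched 27 of the 36 members and 6 of the 10 T cell risers: Eprs, Farsa, Gars, Iars, Kars and Tars. The 9 members without an entry were Cars, Hars, Lars, Nars, Rars, Vars, Wars, Hars2 and Pars2. Both strands were searched for the amino acid response element bound by Atf4 with C/EBP partners, TGATGNAA, and for the E-box bound by Myc, CACGTG, which is its own reverse complement. The amino acid response element was found in 3 of 27 members (Aars, Gars and Tars) and in 3.91% of the 27025 genes in the promoter table. An E-box was found in Aars, Farsb and Iars, also 3 of 27, and in 6.86% of all genes. Among the 6 risers with a sequence, 2 held the response element and 1 held an E-box. These are letter matches in a short window, not sites shown to be bound. The promoters of the 3 risers with a match, and of Aars, which holds both, are printed 5′ to 3′ on the gene's strand with matches in capitals.
Gars, chr6:55037751-55038000, plus strand: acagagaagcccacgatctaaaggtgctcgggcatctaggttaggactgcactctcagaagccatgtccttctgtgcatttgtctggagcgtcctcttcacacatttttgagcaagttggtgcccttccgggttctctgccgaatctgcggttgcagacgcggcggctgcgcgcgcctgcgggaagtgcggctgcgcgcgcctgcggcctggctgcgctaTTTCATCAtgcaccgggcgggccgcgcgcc
Tars, chr15:11399659-11399908, minus strand: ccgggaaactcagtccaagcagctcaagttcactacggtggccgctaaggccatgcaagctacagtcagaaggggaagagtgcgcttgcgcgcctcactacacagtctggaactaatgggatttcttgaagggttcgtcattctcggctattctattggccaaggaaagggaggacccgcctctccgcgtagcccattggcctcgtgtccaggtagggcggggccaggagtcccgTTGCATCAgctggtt
Iars, chr13:49681880-49682129, plus strand: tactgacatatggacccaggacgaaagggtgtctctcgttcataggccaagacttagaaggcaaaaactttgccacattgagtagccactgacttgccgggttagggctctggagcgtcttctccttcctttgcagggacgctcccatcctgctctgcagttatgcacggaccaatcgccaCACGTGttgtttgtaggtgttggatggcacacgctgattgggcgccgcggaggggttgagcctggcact
Aars, chr8:111033592-111033841, plus strand: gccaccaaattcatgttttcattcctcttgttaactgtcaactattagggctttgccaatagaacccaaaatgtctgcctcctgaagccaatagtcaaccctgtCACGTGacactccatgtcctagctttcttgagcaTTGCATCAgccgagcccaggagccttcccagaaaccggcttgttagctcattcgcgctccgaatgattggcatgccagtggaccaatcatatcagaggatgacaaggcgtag
In Gars and Tars the match lies close to the start, ending 23 and 8 bases before it. Aars, with both motifs, was not among the risers (0.63 ± 0.31, adjusted p = 0.171).

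The T cell calls depended on which libraries entered. Leaving out 1 library at a time gave between 1 and 13 called synthetases: 1 without BSA replicate 3, 1 without OVA replicate 1, 2 without OVA replicate 3, 6 without BSA replicate 2, 9 without BSA replicate 1 and 13 without OVA replicate 2. The share of all genes called in each of these fits is not given here, so the counts have no baseline. Hars stayed called in all 12 alternatives, and Wars in 4 of 12. All log2 fold changes of the 10 genes were 0.72 or more in these settings. The authors' deposited table of the same comparison called 7 members, Eprs, Gars, Hars, Iars, Kars, Nars and Rars, among 793 of its 7830 genes. Several library features moved with the groups. BSA libraries held 271134, 155088 and 402391 reads and OVA libraries 423594, 614630 and 1316341. Xist, the transcript of the inactive X chromosome, stood at 87.5 to 98.0 normalized counts after BSA and at 3.15, 2.02 and 50.0 after OVA. Y-linked transcripts together passed 20 CPM in every T cell library of both groups. The summed level of the 11 T cell markers in the table was 2154 to 2502 after BSA and 1719 to 2057 after OVA, that of 7 B cell markers 413 to 648 and 57.7 to 592, and that of 6 conventional DC markers 1989 to 2656 and 340 to 2301. Other sums were higher after OVA without overlap: 4 type 1 conventional DC markers at 68.8 to 141 after BSA and 160 to 280 after OVA, the 1 type 2 marker in the table at 18.3 to 29.7 and 76.6 to 188, and 3 natural killer cell markers at 13.2 to 23.8 and 37.1 to 90.1. Their part in the result was not tested.

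In DCs Wars rose after immunization, and few other synthetases were called. Of the 15 DC comparisons Wars was called higher in 6 and lower in none. In the time course Wars stood at 75.8 and 71.8 CPM in non-immunized DCs. It was at 116 and 89.5 CPM 12 h and at 165 and 168 CPM 24 h after CpG-only particles. After OVA+CpG it was at 202 and 223 CPM at 12 h and at 178 and 164 CPM at 24 h. No immunized library was as low as either non-immunized library. By group mean the order was non-immunized, CpG-only 12 h, CpG-only 24 h, OVA 24 h and OVA 12 h, and of these neighbours only CpG-only 24 h and OVA 24 h overlapped.

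Against non-immunized DCs, which all 4 of these comparisons share, Wars rose 1.62-fold after CpG-only at 12 h (log2 0.70 ± 0.21, adjusted p = 0.0323) and 2.59-fold at 24 h (1.37 ± 0.20, adjusted p = 0.000242). After OVA the rise was 3.36-fold at 12 h (1.75 ± 0.20, adjusted p = 1.59e-05) and 2.69-fold at 24 h (1.43 ± 0.20, adjusted p = 0.000120). Set directly against CpG-only particles, OVA gave 2.07-fold more Wars at 12 h (1.05 ± 0.20, adjusted p = 0.0110). At 24 h the log2 difference was 0.05 ± 0.20 (adjusted p = 0.955). The change of the OVA effect from 12 h to 24 h was -0.99 ± 0.28 and did not pass (adjusted p = 0.0671). For that change 0 of 33 synthetases were called by edgeR or DESeq2 and 3 had an unadjusted p under 0.05, where edgeR called 3.38% of all genes, 2.69% higher and 0.689% lower. The value of Wars passed without CpG-only 24 h replicate 1 (adjusted p = 0.0410). The rises at CpG-only 24 h, OVA 12 h and OVA 24 h held in all 8 alternatives. The CpG-only rise at 12 h was lost in 5 of 8 (adjusted p 0.0289 to 0.235), among them without either non-immunized replicate or without CpG-only 12 h replicate 1. The excess over CpG-only at 12 h was lost without CpG-only replicate 2 (adjusted p = 0.192), without OVA replicate 1 (0.0672) and without OVA replicate 2 (0.111).

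**Figure D3:**
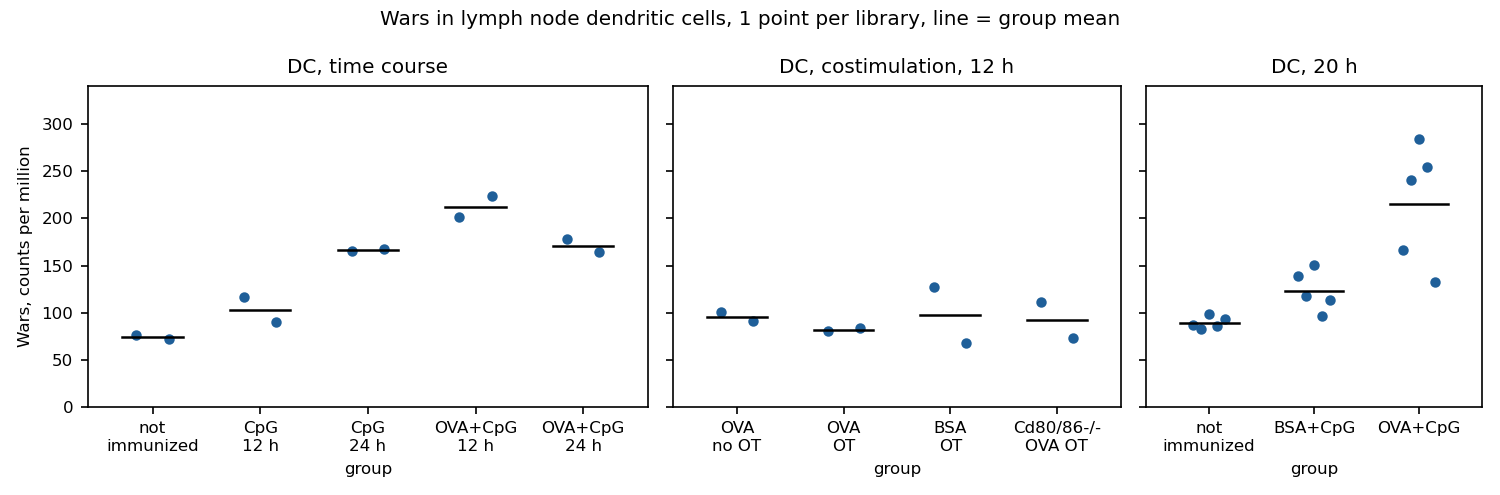
Wars in CPM (y axis, from 0) in each DC library of the 3 experiments, by group, with 1 point per library and a line at the group mean. In the time course all immunized libraries lie above both non-immunized ones, at 20 h the 5 OVA+CpG libraries lie between 132 and 284 CPM, and in the costimulation experiment the groups overlap or lie close together.

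Bulk libraries cannot tell a change in the number of cells of a type from a change in RNA per cell. In the time course the summed level of 11 T cell markers was 6242 to 6406 CPM in non-immunized libraries and 1892 to 3868 in immunized ones. That of 10 neutrophil markers was 127 to 192 CPM in non-immunized libraries, 14112 to 17965 in CpG-only 12 h libraries and 2368 to 2400 in OVA 12 h libraries. That of 8 conventional DC markers was 2323 to 3618 CPM in non-immunized and 3274 to 11025 CPM in immunized libraries. The sum of 6 plasmacytoid DC markers ran in nearly the order of Wars, at 797 to 926 CPM in non-immunized libraries, 1183 to 1334 at CpG-only 12 h, 1672 to 2092 at CpG-only 24 h, 1840 to 2203 at OVA 12 h and 1458 to 1654 at OVA 24 h. Among these markers Bst2, which is also an interferon-induced gene, stood at 165 to 258 CPM in non-immunized libraries and at 1442 to 1899 at OVA 12 h. Without Bst2 the sum was 632 to 669 CPM in non-immunized libraries and 304 to 398 at OVA 12 h, and Siglech, a defining marker, was at 0 in all groups but OVA 24 h. Ccr9 made up most of that sum in non-immunized libraries, at 497 to 541 CPM, and stood at 77.7 to 121 at OVA 12 h. Ly6d went the other way, at 40.8 to 43.1 and 99.3 to 189 CPM. Tcf4 overlapped, at 82.4 to 90.7 and 83.0 to 131 CPM, and Klk1 stood at 0.898 to 4.08 and at 0. The part of these markers in the Wars result was not tested further.

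At 20 h, with 5 libraries a group, Wars was at 86.5, 82.9, 98.0, 85.4 and 92.8 CPM in non-immunized DCs. BSA+CpG libraries stood at 139, 118, 150.1, 96.3 and 113.5 CPM and OVA+CpG libraries at 167, 241, 284, 255.0 and 132 CPM. All OVA libraries were above all non-immunized ones, and the BSA libraries overlapped both groups. Wars rose 2.69-fold with OVA against non-immunized DCs (log2 1.43 ± 0.19, adjusted p = 4.00e-05), a call kept in all 15 alternatives. With BSA the log2 difference was 0.63 ± 0.19 (adjusted p = 0.0520). That difference was called in 4 of 15 alternatives, among them DESeq2 (adjusted p = 0.0326) and the fit without BSA replicate 4 (adjusted p = 0.0403). Between OVA and BSA it was 0.80 ± 0.18, and Wars had the 2nd smallest p of the 9159 genes tested, yet neither Wars nor any other gene passed adjustment (adjusted p = 0.528). edgeR found 561 of those genes at an unadjusted p under 0.05, and DESeq2 called 0. Without OVA replicate 5, the lowest of the OVA libraries, Wars was called (adjusted p = 0.0399). Summed monocyte and macrophage markers were at 528 to 1615 CPM in non-immunized DCs, 112 to 256 after BSA and 69.7 to 249 after OVA, and plasmacytoid DC markers at 278 to 376, 321 to 698 and 550 to 824. Without Bst2 the plasmacytoid sum was 142 to 170, 102 to 146 and 50.7 to 205 CPM. Xist spanned 6.09 to 402, 95.6 to 270 and 5.85 to 367 CPM in the same order of groups. Y-linked transcripts together passed 20 CPM in non-immunized replicates 1, 2 and 3, in OVA replicates 3 and 4, and in no BSA library. A term for these transcripts was among the 15 alternatives. The part of the marker sums was not tested.

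The costimulation experiment gave no call for Wars. Cd80 stood at 4.23 and 12.4 CPM in the libraries labelled Cd80/86 -/- and at 10.0 and 11.4 CPM in the wild-type libraries after OVA with OT cells. Cd86 stood at 37.4 and 48.5 against 81.5 and 82.6 CPM. Where the counted reads lie relative to the deleted parts of both genes is not given in the sources used here, so these levels do not check the genotype labels. Wars was at 101 and 91.0 CPM after OVA without OT cells, 80.0 and 83.9 with OT cells, 127 and 67.2 after BSA with OT cells, and 111 and 73.4 in the libraries labelled knockout. The last 2 groups each spanned the range of the others. Log2 differences were -0.17 ± 0.36 for OVA with against without OT cells, -0.17 ± 0.37 for OVA against BSA with OT cells, and 0.12 ± 0.36 for knockout against wild type. Libraries without OT cells also held 1994 to 5349 CPM of 5 natural killer cell markers, against 25.0 to 125 in wild-type libraries after OVA with OT cells, and the part of these was not tested.

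Among the other 19 cytosolic synthetases the DC comparisons gave 3 calls. Eprs stood at 120 and 123 CPM in non-immunized DCs and at 54.1 and 56.7 CPM 12 h after CpG-only particles, which lay below both, and it fell by 0.92 ± 0.24 (adjusted p = 0.0150). In the other 3 immunized groups of the time course both values were also below both non-immunized ones, with log2 differences of -0.72 at OVA 12 h, -0.62 at OVA 24 h and -0.33 at CpG-only 24 h that were not called. Aars rose at OVA 12 h, from 38.3 and 38.6 to 58.6 and 75.0 CPM (1.00 ± 0.28, adjusted p = 0.0256). Vars fell at 20 h with OVA by 0.64 ± 0.19 (adjusted p = 0.0278), from 78.8, 51.0, 89.9, 54.3 and 62.3 CPM in non-immunized DCs to 47.9, 42.5, 25.8, 38.2 and 35.8 CPM. In the time course Vars was not called and went the other way at OVA 12 h, at 254 and 196 CPM against 137 and 185 in non-immunized DCs. Its values in the other 3 immunized groups overlapped those of non-immunized DCs. The 3 calls were lost in some alternatives. Eprs and Aars each lost theirs in 5 of 8, among them every setting without 1 library, and Vars in 2 of 15, without non-immunized replicate 1 (adjusted p = 0.0699) and without OVA replicate 3 (0.0595).

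In DCs after CpG-only particles 1 of 20 cytosolic genes was called higher and 1 lower at 12 h, where 11.6% and 4.65% of all genes tested were. At CpG-only 24 h 1 of 20 was called higher and 0 lower, against 7.96% and 3.05% of all genes. At OVA 12 h 2 of 20 were called higher and 0 lower, against 9.56% and 4.04%, and at OVA 24 h 1 and 0, against 10.2% and 3.92%. These shares of cytosolic genes called higher were at or near those of all genes, or below them. Directly between OVA and CpG-only at 12 h 1 of 20, Wars, was called higher and 0 lower, where 0.753% of all genes were called higher, 1.71% lower and 2.46% either way. In the 20 h experiment 1 was called higher and 1 lower with OVA against non-immunized DCs, where 9.59% and 6.04% of all genes were, and with BSA 0 were called, where 3.68% were called higher, 1.77% lower and 5.45% either way. With BSA 5 cytosolic genes had an unadjusted p under 0.05, and DESeq2 called 1 synthetase, Wars. No mitochondrial synthetase was called in any DC comparison by edgeR, and at most 3 had an unadjusted p under 0.05 in a comparison. Median log2 fold changes of the cytosolic list ran from -0.14 to 0.11 in the 4 time course comparisons with non-immunized DCs, against -0.03 to 0.00 for all genes, and stood at 0.03 and 0.02 for BSA and OVA at 20 h.

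**Figure D4:**
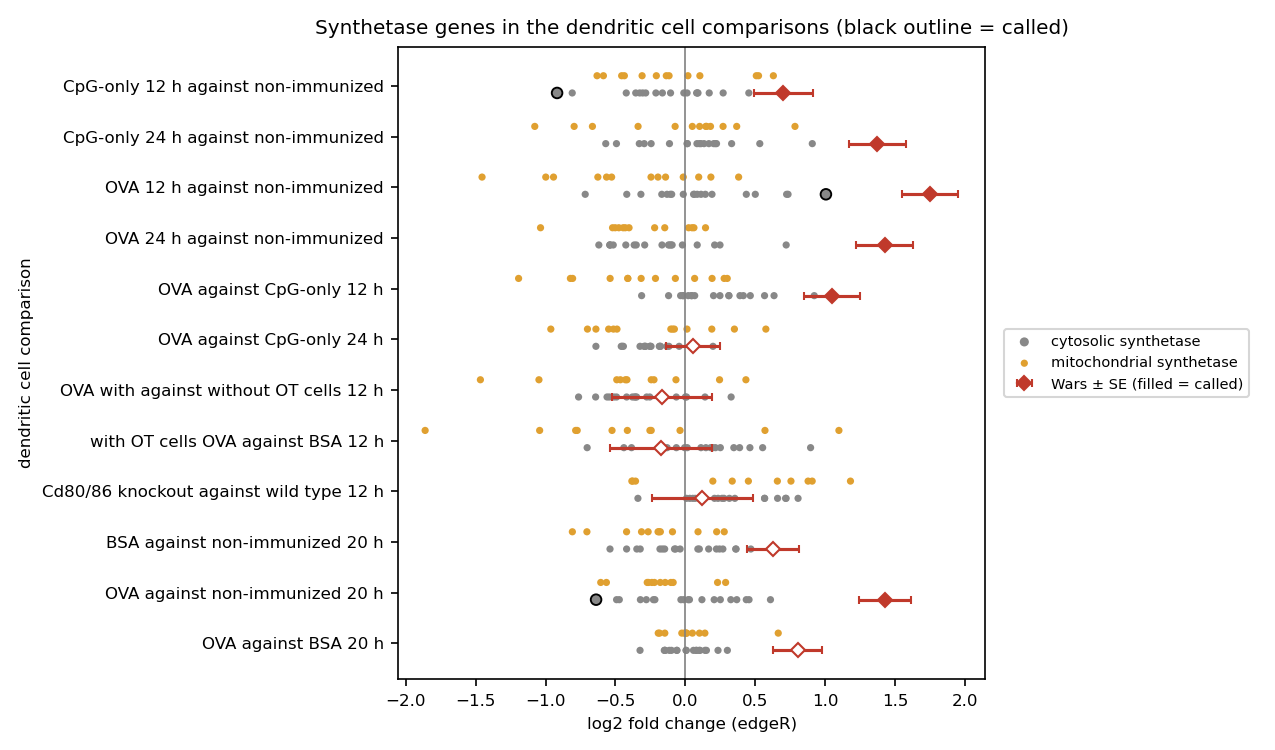
Log2 fold change (x axis, edgeR) of each synthetase gene tested in 12 DC comparisons (y axis), with mitochondrial genes as orange points, cytosolic genes other than Wars as grey points, called ones outlined in black, and Wars as a red diamond with its standard error, filled where called. Wars has the highest value of the set in the 6 comparisons with non-immunized DCs, narrowly so at CpG-only 12 h (0.70, with Aars at 0.69), and lies among the others in the 3 costimulation comparisons.

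Comparisons with no called member are given by their smallest p-values. With OT cells against without, 0 of 31 synthetases were called by edgeR or DESeq2 (edgeR called 2.6% of all genes, 1.27% higher and 1.33% lower) and 1 had an unadjusted p under 0.05, Vars2 (log2 -1.47 ± 0.62, adjusted p = 0.249), followed by Vars (-0.76 ± 0.36). For the cytosolic list the median was -0.35, with 17 of 20 values below 0, and Srm and Nop58 of the growth list fell in the same comparison, Srm by 1.65 ± 0.29 (adjusted p = 0.0168). For OVA against BSA with OT cells 0 of 31 were called by either tool (0.0107% of all genes by edgeR) and 3 had an unadjusted p under 0.05, led by Vars2 (-1.86 ± 0.63) and Iars2 (1.10 ± 0.47). In the knockout comparison 0 of 31 were called by either tool (0% of all genes by edgeR, 48 genes by DESeq2). There 1 had an unadjusted p under 0.05, Rars (0.81 ± 0.32, adjusted p = 0.402), and 19 of 20 cytosolic values were above 0 with a median of 0.25. Its wild-type libraries, after OVA with OT cells, were also the first group of the comparison with against without OT cells. The opposite signs of the cytosolic values in both comparisons are therefore not independent. The share of all genes with these signs is not given here. For OVA against CpG-only at 24 h 0 of 33 were called by either tool (0% of all genes by edgeR, 29 genes by DESeq2) and 1 had an unadjusted p under 0.05, with Tars2 (-0.55 ± 0.23) and Iars (-0.64 ± 0.34) first. From 12 h to 24 h 0 of 33 were called by either tool after CpG-only, where 3 had an unadjusted p under 0.05 and edgeR called 7.63% of all genes, 3.36% higher and 4.26% lower. Wars (0.67 ± 0.20, adjusted p = 0.0565) and Tars2 (0.58 ± 0.23) had the smallest p. After OVA 0 of 33 were called by either tool, 4 had an unadjusted p under 0.05, and edgeR called 8.9% of all genes, 5.03% higher and 3.87% lower. There Rars (-0.85 ± 0.30, adjusted p = 0.0998) and Gars (-0.60 ± 0.22) had the smallest p.

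Across the 33 DC libraries the genes whose levels ran most like Wars were interferon targets. With each experiment's mean subtracted from log2(CPM + 1), Pearson's r with Wars was ranked over 7168 genes, and among the 6 highest were Igtp (0.90), Irf1 (0.90), Tap1 (0.89), Irgm1 (0.89) and Parp12 (0.88). Igtp and Irgm1 encode interferon-inducible GTPases, Irf1 an interferon-responsive transcription factor and Tap1 a peptide transporter of antigen presentation. Libraries of a group share their treatment, so r mostly restates differences between groups, and it has no p-value here. For Igtp it was 0.95 in the time course, 0.95 at 20 h and 0.58 in the costimulation experiment, whose 8 libraries were all immunized. Among the 100 genes most like Wars were 19 of 27 interferon-γ induced genes and 17 of 19 type I interferon induced genes, and 0 of the other 19 cytosolic synthetases. As 100 of 7168 genes is a small share, the 0 of 19 is near the share of all genes. The cytosolic synthetase most like Wars was Aars, at rank 304 (0.49), and the median r of Wars with the 19 was -0.27. Near the middle of the 7168 ranks r was also below 0, at -0.14 for Slc7a1 (rank 3551). Among themselves those 19 had a median r of 0.20.

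**Figure D5:**
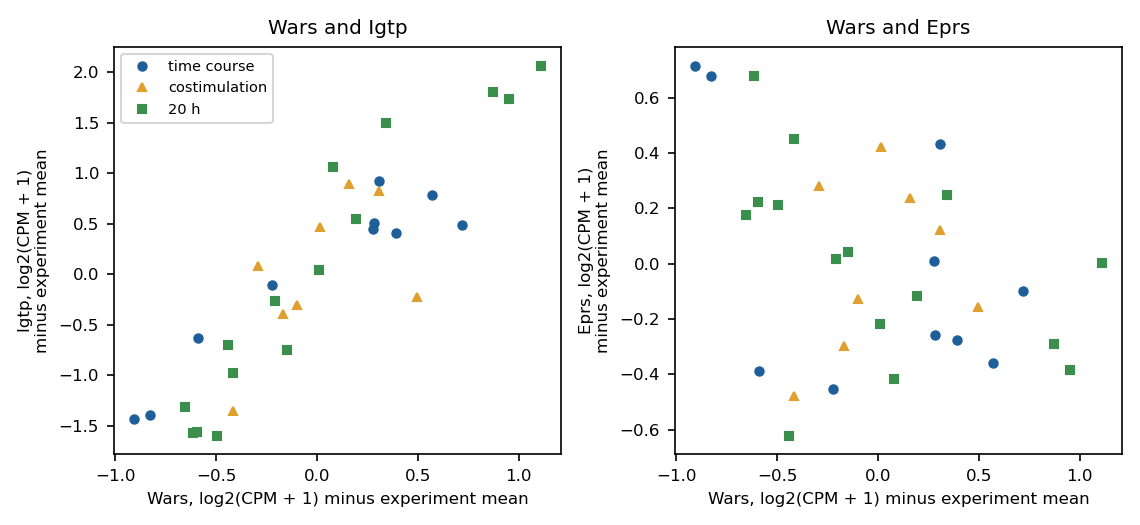
Each DC library's Wars level (x axis) against its Igtp level (left) and its Eprs level (right), all as log2(CPM + 1) minus the mean of the experiment, with the 3 experiments marked by shape and colour. Pearson's r over the 33 libraries is 0.90 for Igtp and -0.38 for Eprs; BSA with OT cells replicate 1, the costimulation library highest in Wars (0.50), is below the mean in Igtp (-0.22).

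The interferon lists were called far more often than the synthetases in the same DC comparisons. Interferon-γ induced genes were called higher in 26 of 28 cases at CpG-only 12 h, 25 at CpG-only 24 h, 27 at OVA 12 h and 27 at OVA 24 h. Between OVA and CpG-only at 12 h, where Wars was the only synthetase called, 12 of 28 were called higher, among them Tgtp1 (1.21 ± 0.18, adjusted p = 0.00249) and Gbp4 (1.10 ± 0.19). At 20 h the list gave 14 of 27 for BSA and 24 of 27 for OVA, including Igtp (3.21 ± 0.38) for OVA. Type I interferon induced genes were called higher in 20 of 20 cases in each of the 4 time course comparisons with non-immunized DCs.

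Other lists of the pathway gave scattered calls in DCs. Of all genes tested, 11% to 16.3% were called either way in the 4 time course comparisons with non-immunized DCs. At 20 h with OVA 15.6% were, and between OVA and CpG-only at 12 h 2.46%. The genes named here were picked from those called. Except for the scaffold genes the number called of each list is not given, so they say nothing about a list as a whole. Of 3 scaffold genes 1 was called, Aimp2, which fell at OVA 24 h by 1.03 ± 0.31 (adjusted p = 0.0328). The kinase Eif2ak2, an interferon target that phosphorylates eIF2, rose in each of the 4 time course comparisons, by 1.91 to 2.63, and at 20 h with OVA by 1.68 ± 0.26. Ppp1r15a, the phosphatase subunit that reverses this, rose at CpG-only 12 h (1.95 ± 0.30), CpG-only 24 h (1.15 ± 0.31) and OVA 24 h (2.04 ± 0.30) and was lower with OVA than with CpG-only at 12 h by 1.54 ± 0.30. Of the amino acid response genes Atf3 rose at 12 h after CpG-only (2.89 ± 0.39) and OVA (3.69 ± 0.37) and at OVA 24 h (1.71 ± 0.44). Among the transporters the glutamine carrier Slc38a1 fell in all 4 time course comparisons with non-immunized DCs, by 0.67 to 1.18. In the tryptophan breakdown list Kynu rose at CpG-only 12 h (1.91 ± 0.55) and Kmo at CpG-only 24 h (2.13 ± 0.62) and OVA 12 h (2.17 ± 0.62), whereas Haao fell at OVA 12 h by 1.18 ± 0.33. Ido1, Ido2 and Tdo2, which encode the first enzymes of that route, did not pass the filter in any DC table and were not tested.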

How the data were processed

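The 39 libraries were grouped by the submitters' labels. The 3 DC tables hold raw read counts per gene that the authors deposited; the labels name exon counts for all tables and unique molecular identifiers for the time course only. The T cell table holds counts the authors normalized by library before deposit (signal per gene, per the file headers), with the authors' log2 fold change and adjusted p-value beside them. All its values were whole multiples of 1 read (within 0.01 reads for 100% of values), so read totals were recovered from it. Per the submitters' processing notes, bcl2fastq, HISAT 0.1.6, HOMER and genome build mm9 were used, so no coordinates of the deposited genes are printed; promoter coordinates are RefSeq GRCm38.p6.

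DC counts were tested with edgeR 4.0.16 (filterByExpr, TMM, all groups of an experiment in 1 fit). T cell values were tested with limma 3.58.1 (trend) after adding 1 and taking log2, keeping a gene when 3 libraries reached 10 normalized counts. DESeq2 1.42.0, other normalization, filters, pseudocounts of 0.5 and 5, a replicate block, a term for Y-linked transcripts (20 h) and leaving out each library were alternatives. Both scripts were tested on simulated data. Of the 20 h columns, 4 from 2 libraries match no sample and were not used. The named genes are Wars, the called synthetases (at most 8 rises and 8 falls a comparison), the 2 smallest p-values where none was called, up to 4 called genes of each list, and the 6 genes most like Wars, of which 1 is not reported here. The members, lists and tests were chosen with earlier results of these data known.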

Additional observations from a re-analysis of the deposited data

Results flagged for a closer look

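In the 20 h BSA+CpG group Farsa, the catalytic subunit of the phenylalanine enzyme, had 1 library far from the others: replicate 4 stood at 14.3 CPM, the next lowest at 29.2 and the highest at 33.1. The gap made up 0.795 of the group's range, above the limit of 0.71 for 5 libraries. It was 1 of 36 gene and group combinations screened, of which chance alone would be expected to mark about 1 in 20. The screen did not cover every member in every group, and Farsa is not the only such case. Wars2, in the same group, was also past the limit: it stood at 14.3 CPM in replicate 4, with the next highest at 7.87 and the lowest at 6.81. Others past it at 20 h included Aars2 and Tars2 in OVA+CpG replicate 3 and Dars in non-immunized replicate 3.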

How the results depend on the processing

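Counts of called synthetases are small, so 1 gene moves them. The shares of all genes called under the alternatives are not given here, so the counts below have no baseline. With DESeq2 the count fell from 2 to 0 at CpG-only 12 h and from 2 to 1 at OVA 12 h, both against non-immunized DCs, and was 1 in place of 0 for BSA at 20 h. Without the filter on low counts it was 1 at CpG-only 12 h, 3 in place of 1 at CpG-only 24 h, and 1 in place of 0 for OVA 24 h against 12 h, for the change of the OVA effect over time and for BSA at 20 h. DESeq2 size factors gave 2 at CpG-only 24 h, and a term for Y-linked transcripts gave 1 for BSA at 20 h. Leaving out 1 library gave 0 to 1 at CpG-only 12 h, 1 to 2 at CpG-only 24 h, 1 at OVA 12 h, 0 to 1 for OVA against CpG-only at 12 h and at 24 h, for CpG-only 24 h against 12 h, for the change of the OVA effect, for BSA against non-immunized and for OVA against BSA at 20 h, 1 to 4 for OVA at 20 h (4 without OVA replicate 5), and 1 to 13 in T cells. A lone library left in a group of 2 was assumed to vary like the other groups. The Wars difference between OVA and CpG-only at 24 h ran from -0.056 (without OVA replicate 1) to 0.17, that between OVA and BSA with OT cells from -0.64 to 0.50 (without BSA replicate 1), and that of the knockout from -0.24 (without knockout replicate 1) to 0.39; none passed the test, and the cause was not tested. Of the other values of single genes 223 kept direction and side of the threshold, 63 lost their call and 7 gained one. A replicate block gave 2 at CpG-only 24 h in place of 1 and 7 in T cells in place of 10. Whether replicate numbers pair the samples is not settled, because groups of so few libraries leave little to correlate once their means are subtracted. Same-numbered libraries correlated at -0.12 to 0.05 in T cells (0 of 3 pairs over 0.1) and -0.14 to 0.17 at 20 h (4 of 15). The range was -0.06 to 0.16 in the costimulation experiment (3 of 9) and -0.05 to 0.14 in the time course (2 of 20). Of differently numbered pairs 1 of 6, 12 of 60, 1 of 15 and 0 of 20 were over 0.1, in the same order. Between 3 and 5 of the 16 mitochondrial genes, depending on the DC experiment, did not pass the filter on low counts, so nothing is tested for them.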
